A study of Saccharomyces cerevisiae with 15 samples.

Results

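Glucose derepressed yeast (Glc24h) was compared with glucose repressed yeast (Glc5h) of the same aerobic batch cultures, across every gene on the array. All arrays titled glucose 24 h or glucose 5 h were used, which gave 10 of the 15 arrays of the series and left the xylose arrays aside. Each state was represented by 3 cultures (fermentations 0, 1 and 2). The 3 hybridisations of fermentation 2 in each state repeat 1 RNA sample and were averaged, so n = 3 cultures per state. Glc24h cells were sampled 24 h after the start, when the medium held no glucose and 13 g/l ethanol. Glc5h cells were sampled at 5 h with 37 g/l of the initial 50 g/l glucose left. The 5 h and 24 h samples of a fermentation number came from 1 culture. The 6 cultures counted below are therefore 6 samples of 3 fermentations. Leaving out a culture below means leaving out its sample of 1 state, while its sample of the other state was kept. Both states shared the strain Saccharomyces cerevisiae VTT-C-99318, a MATalpha laboratory strain derived from CEN.PK2-1D that carries MAL2-8c and SUC2 and auxotrophic alleles of HIS3, TRP1, URA3 and LEU2. It carries the Pichia stipitis genes XYL1 (PGK1 promoter) and XYL2 (modified ADH1 promoter) at ura3, and an extra copy of its own XKS1 with a modified ADH1 promoter at his3. The comparison therefore describes 1 engineered strain in synthetic complete medium, without a non-engineered control.

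When yeast grows on plentiful glucose it ferments most of the sugar to ethanol, and the genes for respiration, gluconeogenesis and other carbon sources are held off by glucose repression. Once the glucose is used up, the cells pass through the diauxic shift: growth slows, the ethanol is taken back up, oxidised to acetate and acetyl-CoA, and fed into the glyoxylate and tricarboxylic acid cycles. Hexose phosphates must then be made from these small molecules by gluconeogenesis. Signals are relative within an array. A smaller amount of messenger RNA per cell could therefore not be told apart from an unchanged amount.

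Signals were scaled to a common 75th percentile, and values under 16 were set to 16 (the floor). After the scaling, between 50.4% and 52.4% of the probe sets of an array lay under the floor. The SD between cultures, taken as the root of the mean variance over probe sets, was 0.465 in Glc24h and 0.476 in Glc5h on the log2 scale. Between repeat hybridisations it was 0.17 in Glc24h and 0.166 in Glc5h. The Glc24h array of fermentation 1 stood apart in the actin control of RNA quality. The ratio of the 3' to the 5' actin probe set was 10.3 on it, against 2.18 to 3.01 on the other Glc24h arrays and 1.86 to 2.29 on the Glc5h arrays. The same ratio for YER148w was 3.24 on it, within the 2.71 to 3.8 of the other arrays. For YER022w it was 15.1, against 3.24 to 7.01 on the other Glc24h arrays and 4.52 to 11.3 on the Glc5h arrays. The part of this array in the results was not tested beyond leaving it out. The main counts are given with and without it. For the 24 h samples of fermentations 1 and 2 the treatment note in the sample labels says 5 h, whereas titles and source names say 24 h. Titles and source names were followed. Of the markers of cell type, all 5 alpha-specific genes were over the floor in every culture. Of 7 a-specific genes 6 were at the floor on all arrays, as were 7 of 8 meiotic genes. The remaining meiotic gene, IME1, had signals of 76.5, 16 and 20.2 in Glc24h cultures and was at the floor in Glc5h cultures.

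Of 5818 probe sets over the floor on at least 1 array, 679 were higher in Glc24h (11.7%) and 874 were lower (15%), together 26.7% (limma, adjusted p under 0.05). Counted as 1 probe set per gene, 597 of 4619 tested genes were higher (12.9%) and 764 were lower (16.5%). The median difference was 1.4 on the log2 scale for probe sets called higher and -1.48 for those called lower. These medians cover only probe sets that passed the test, which favours large differences, and the smallest size called was 0.40. The largest rises exceeded the largest falls in number, since 69 genes rose by over 3 on the log2 scale and 22 fell by as much. Without the Glc24h array of fermentation 1 the counts were 523 higher and 556 lower, and 435 of the 679 and 511 of the 874 probe sets were called again. The split depended on the scaling. When arrays were scaled on 5 reference genes, the median over all probe sets was 0.282, against -0.045 in the main scaling, and 75.4% of the called probe sets were higher, against 43.7% in the main scaling and 55.0% with signals as deposited. Directions of gene groups below are read against that shift. Shares of list members called are read against the 12.9% higher and 16.5% lower of all tested genes.

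**Figure D1:**
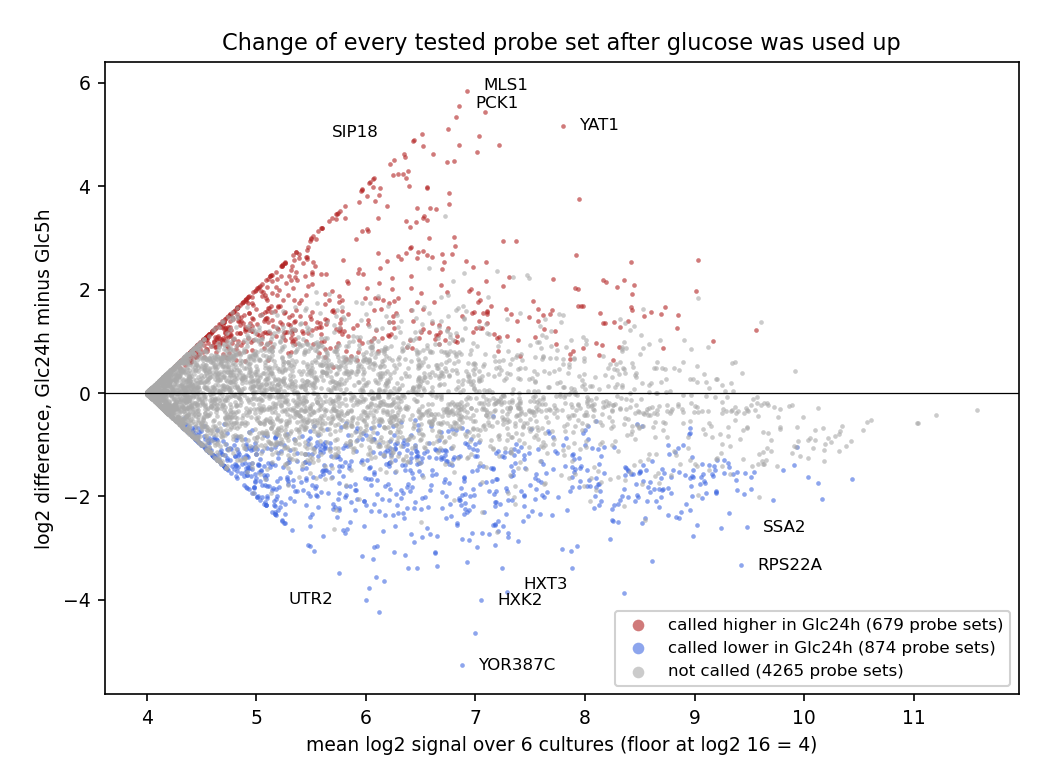
Each point is a probe set, with its mean log2 signal over the 6 cultures on the horizontal axis and its log2 difference (Glc24h minus Glc5h) on the vertical axis. Red marks the 679 probe sets called higher in Glc24h and blue the 874 called lower. The diagonal edges are probe sets at the floor of 16 in every culture of 1 state, for which the plotted difference is a lower bound of the size.

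The largest rise in Glc24h was that of MLS1, the malate synthase of the glyoxylate cycle. Its signals were 1600.4, 619 and 779 in Glc24h cultures and 16 in all Glc5h cultures, a difference of at least 5.84 (log2) or at least 57.3-fold (adjusted p = 0.00103). PCK1, phosphoenolpyruvate carboxykinase, reached 1366, 619 and 580.2 in Glc24h and 16, 18.4 and 16.2 in Glc5h (log2 5.55 ± 0.36 SE, adjusted p = 0.00111). ICL1, isocitrate lyase, had 1427, 550.0 and 908 in Glc24h and 16, 16 and 34.3 in Glc5h (log2 5.44, adjusted p = 0.00188). In each of these genes the cultures of both states were far apart and did not overlap. They were followed by HXT5, a hexose transporter of slowly growing cells (log2 5.35), and by YAT1 (5.17) and CRC1 (5.10), an acetyltransferase and a mitochondrial carrier of the carnitine shuttle. JEN1, the lactate and pyruvate permease, was at the floor in Glc5h and rose by at least 5.02. ACS1, the acetyl-CoA synthetase of derepressed cells, rose by 4.97. The stress hydrophilin SIP18, at the floor in Glc5h, rose by at least 4.89. FBP1, fructose bisphosphatase, rose by at least 4.87. AGX1, which makes glycine from glyoxylate, rose by 4.80. The stationary phase gene SPG4 rose by 4.79, the maltose-type sugar transporter gene MAL11 by 4.78, the plasma membrane heat-shock gene HSP30 by 4.66 and the glutamate dehydrogenase gene GDH3 by 4.63. All 15 calls held when any 1 culture was left out and with the culture as a block.

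The largest fall among named genes was that of YOR387C, a gene known by its systematic name. Its signals were 16, 26.4 and 16 in Glc24h cultures and 1097, 722 and 492 in Glc5h cultures (log2 -5.27, adjusted p = 0.00128). HXK2, the hexokinase of growth on glucose, had 36.6, 22.2 and 44.9 in Glc24h and 722, 620.4 and 339 in Glc5h (log2 -4.01, adjusted p = 0.00277). UTR2, a cell wall chitin transglycosylase, was at the floor in all Glc24h cultures and at 243, 196 and 352 in Glc5h, a fall of at least 16.0-fold. Glucose transporters of the plasma membrane followed, HXT3 (log2 -3.86), HXT2 (-3.77) and HXT1 (-3.57). The CTP synthase gene URA7 differed by -3.49, the branched-chain aminotransferase gene BAT1 by -3.38 and the fatty acid elongase gene ELO3 by -3.34. Genes of the protein synthesis apparatus were RPS22A (-3.33), the snoRNA-protein gene NOP58 (-3.27) and ASC1 (-3.26), a protein of the small ribosomal subunit. SOL3, a lactonase of the pentose phosphate pathway, differed by -3.22 and the acid phosphatase gene PHO3 by -3.16. These calls held in every run with a culture left out. The remaining one of the 15, OAC1, a mitochondrial carrier of oxaloacetate, differed by -3.38 (adjusted p = 0.0136), and its call was lost in 5 of the 6 runs and held only without Glc5h fermentation 2, in which its signal was 191 against 820 and 743 in the other Glc5h cultures.

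Among the lists of carbon metabolism, gluconeogenesis had the highest share of members called higher. Of 14 tested genes 12 rose and 1 fell, with a median of 2.10 (log2) against -0.045 over all tested probe sets, and 8 to 12 rose when cultures were left out in turn (10 without Glc24h fermentation 1). FBP1 was at 791, 372 and 346 in Glc24h cultures and at the floor in every Glc5h culture. PCK1 and FBP1 encode enzymes that bypass irreversible steps of glycolysis, and both stood near or at the floor on glucose. IDP2, the cytosolic source of NADPH on non-fermentable carbon, had 232, 192 and 170 in Glc24h and was at the floor in Glc5h (log2 at least 3.62, adjusted p = 0.000475). SFC1, the succinate-fumarate carrier of mitochondria, was at 367, 303 and 211 in Glc24h and at the floor in Glc5h (log2 at least 4.16). JEN1 had 593, 422 and 561 in Glc24h and was at the floor in Glc5h. The member that fell was DIC1, the dicarboxylate carrier, with 50.6, 28.0 and 69.2 in Glc24h and 402, 263 and 451 in Glc5h (log2 -2.97, adjusted p = 0.00611). Genes for the degradation of gluconeogenic enzymes upon return of glucose rose too: the ubiquitin-conjugating enzyme gene UBC8 by 1.55 (a probe set that other transcripts may share), GID8 by 1.74 and VID24 by 1.33. The VID24 call was lost without Glc24h fermentations 0 or 2 or Glc5h fermentation 1. The cytosolic malate dehydrogenase gene MDH2 rose by 2.68, a call lost without Glc24h fermentation 1 or Glc5h fermentations 0 or 1 (adjusted p up to 0.076). With the culture as a block the pyruvate carboxylase gene PYC1 (log2 1.61) had an adjusted p of 0.055 and GID7 (1.04) one of 0.0714.

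In the glyoxylate cycle, which lets cells build sugars from acetyl-CoA, 5 of 7 tested members rose and none fell (median 1.27). When a culture was left out 2 to 4 rose, 2 of them without fermentation 1 of either state and 3 without fermentation 0 of either state. MLS1 and ICL1 rose the most, and both calls held in every such run. ACO1, aconitase, rose by 0.86 from a high level, with 666, 556 and 491 in Glc24h and 365, 267 and 310.4 in Glc5h (adjusted p = 0.0249), and its call was lost in 4 of 6 such runs. CIT2, the peroxisomal citrate synthase, was at 962, 486 and 657 in Glc24h and at 420.1, 529 and 232 in Glc5h, and these ranges overlapped (log2 0.86, adjusted p = 0.171). The peroxisomal MDH3 overlapped as well (log2 0.23, adjusted p = 0.771). ICL2, a second lyase gene of mitochondria, rose by 1.27, and the call was lost with the block (adjusted p = 0.0843).

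On the route from ethanol to acetyl-CoA, 7 of 19 tested members rose in the main comparison and in each run with a culture left out (median 0.82), and 3 fell. ADH2, the alcohol dehydrogenase that oxidises ethanol, had 803, 194 and 271 in Glc24h and 16, 16.6 and 28.2 in Glc5h (log2 4.15 ± 0.58 SE, adjusted p = 0.00714). Fermentation 0 was the highest of the Glc24h cultures and the difference was 3.55 without it. The mitochondrial ADH3 rose by 0.97, with 348, 397 and 409 in Glc24h and 187, 195 and 208 in Glc5h (adjusted p = 0.00681). Of the acetaldehyde dehydrogenase genes, ALD4 and ALD6 did not pass the test: ALD4 had 832, 366 and 262 in Glc24h and 145, 334 and 299 in Glc5h (adjusted p = 0.306), and ALD6 had 700.0, 364 and 406 in Glc24h and 538, 386 and 287 in Glc5h (adjusted p = 0.607). ACS1 had 1076, 543 and 676 in Glc24h and 22.1, 19.5 and 29.5 in Glc5h (log2 4.97 ± 0.31 SE, adjusted p = 0.00102). ACH1, an acetyl-CoA hydrolase with CoA transferase activity, rose by 3.75. The acetate and ammonium transporter genes ATO2 and ADY2 rose by 4.47 and by at least 3.39. ALD3, expressed in stress, rose by 0.85, with signals of 29.8 to 30.4 in Glc24h close to the floor. The members that fell were ADH4 (log2 -2.76), PDC1 (-2.40) and ALD5 (-1.75, with an adjusted p of 0.0611 in the block). None of them was called without Glc24h fermentations 1 or 2 or Glc5h fermentation 0, and 1 was called without Glc5h fermentation 1.

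**Figure D2:**
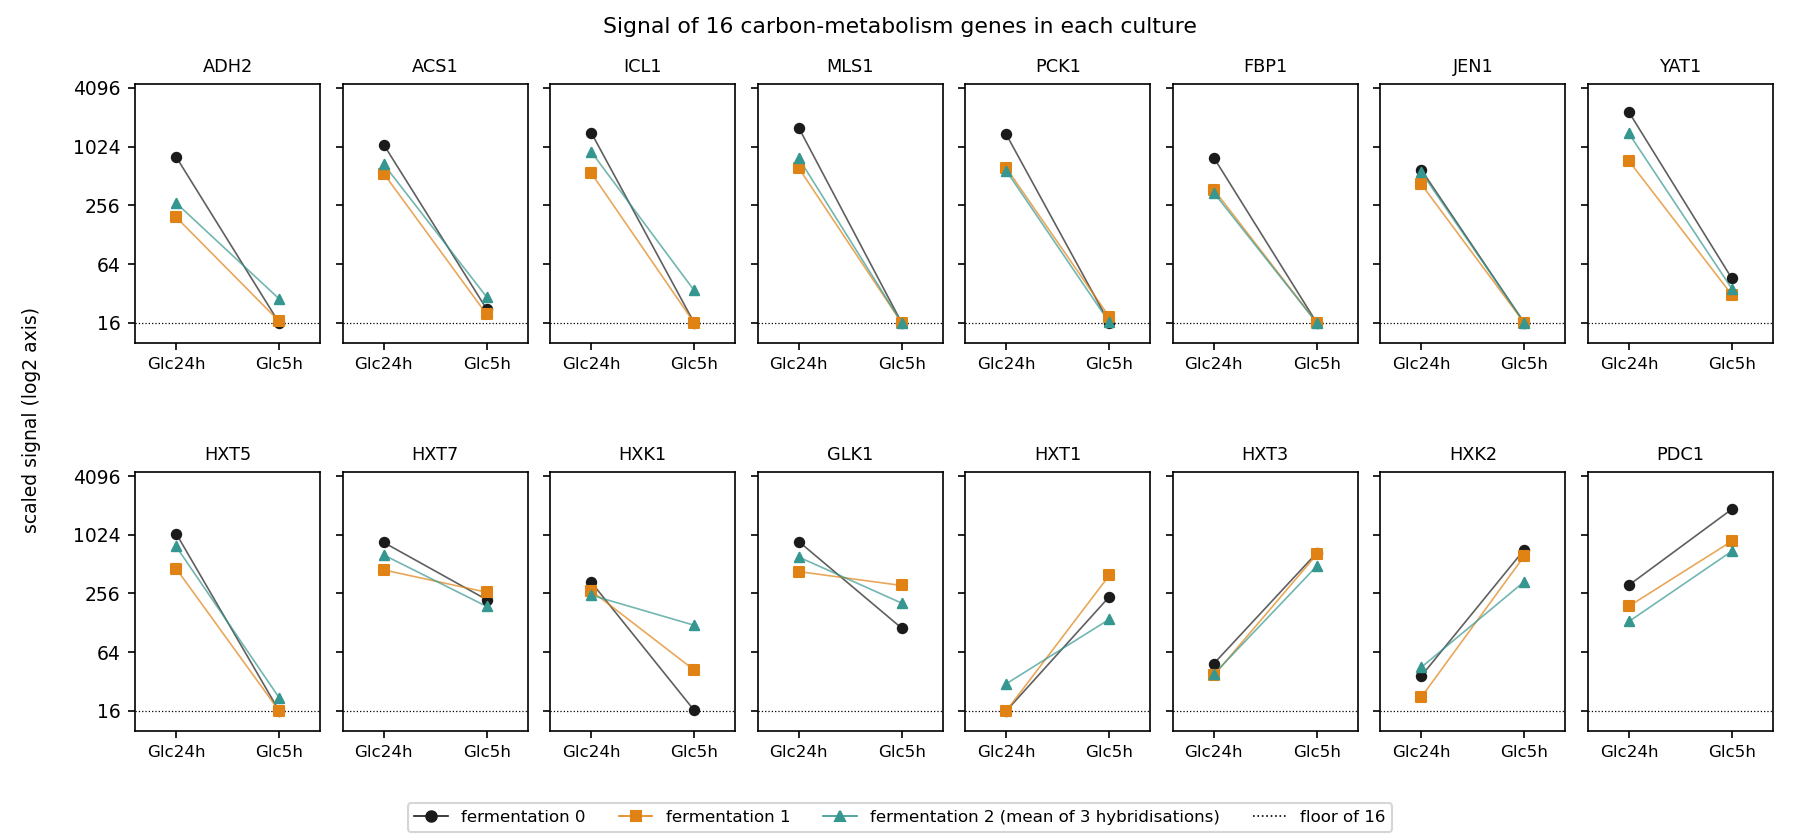
The scaled signal of 16 genes of carbon metabolism is shown on a log2 axis in each culture, with Glc24h left and Glc5h right and a line joining the samples of 1 fermentation. ADH2, ACS1, ICL1, MLS1, PCK1, FBP1, JEN1 and HXT5 lay at or near the floor of 16 in Glc5h, and YAT1 was low but over the floor there. HXT1, HXT3 and HXK2 were high in Glc5h and low in Glc24h.

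Acetyl units made outside the mitochondrion can be carried inside on carnitine. The acetyltransferase genes YAT1, YAT2 and CAT2 and the mitochondrial carrier gene CRC1 of that shuttle rose. AGP2 (log2 1.24) and HNM1 (-0.33) of the same list were not called. Use of the shuttle was not measured. YAT1 reached 2318, 732 and 1399 in Glc24h and 45.7, 31.0 and 35.9 in Glc5h (adjusted p = 0.00188). CRC1 had 889, 339 and 834 in Glc24h and 16, 16 and 24.1 in Glc5h. YAT2 rose by 4.50 and the carnitine acetyltransferase gene CAT2 by 3.98. Together with the genes of peroxisomal fatty acid oxidation, 13 of 34 tested members rose and 2 fell (median 0.76), and 9 to 12 rose with a culture left out. Among the oxidation enzymes, picked for description after their values were seen, FOX2 rose by 3.13 and POX1 by at least 1.80. POT1, the thiolase, spread widely in Glc24h with 321, 39.3 and 153 against 16, 16 and 16.6 in Glc5h (log2 2.94), and its call was lost in 5 of 6 runs with a culture left out (adjusted p up to 0.14). The peroxisomal catalase CTA1 was at 110, 67.4 and 93.5 in Glc24h and at the floor in Glc5h (log2 at least 2.47, adjusted p = 0.00179). FAA1, a fatty acyl-CoA synthetase, fell by 1.23 on the log2 scale and the peroxisomal adenine nucleotide carrier ANT1 by 1.07. The call of ANT1 was lost under reference gene scaling.

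In the tricarboxylic acid cycle 11 of 21 tested members rose and 1 fell (median 0.95), with 7 to 9 rising when a culture was left out and 7 without Glc24h fermentation 0 or Glc5h fermentation 1. The members with the largest rises were SDH1 and SDH2, subunits of succinate dehydrogenase, which is also a complex of the respiratory chain. SDH1 had 545, 341 and 408 in Glc24h and 41.7, 63.2 and 63.3 in Glc5h (log2 2.94 ± 0.26 SE, adjusted p = 0.00207), and SDH2 had 1027, 589 and 916 in Glc24h and 111, 128 and 202 in Glc5h (log2 2.53, adjusted p = 0.00546). The membrane subunit genes SDH3 and SDH4 rose by 1.69 and 1.53. CIT3, a minor mitochondrial citrate synthase, rose by 2.26 and the oxodicarboxylate carrier gene ODC1 by 2.32. The major citrate synthase CIT1 had 1125, 502 and 776 in Glc24h and 422, 385 and 417 in Glc5h, which did not overlap but did not pass the test (log2 0.90, adjusted p = 0.0821). ODC2, a second oxodicarboxylate carrier, was at 16, 16 and 16.5 in Glc24h and at 127, 70.9 and 30.2 in Glc5h (log2 -2.0, adjusted p = 0.0389). This is the member counted as lower, and its call was lost with the block (adjusted p = 0.0508) and in 5 of 6 runs with a culture left out.

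Among respiratory chain genes the large rises were mostly in dehydrogenases that feed electrons into the chain. Of 52 tested members 13 rose and none fell (median 0.78). Leaving out cultures gave 8 to 14, with 8 without Glc24h fermentation 2 or Glc5h fermentation 1, and reference gene scaling gave 33. NDE2, an external NADH dehydrogenase, was at 447, 313 and 351 in Glc24h and at the floor in Glc5h (log2 at least 4.52, adjusted p = 0.000328). NDE1, its relative, was at 399, 302 and 348 in Glc24h and at 106, 141 and 117 in Glc5h (log2 1.53, adjusted p = 0.00435). GUT2, the mitochondrial glycerol phosphate dehydrogenase, rose by 3.34, COX26, a cytochrome oxidase subunit, by 3.33 and CYB2, the lactate cytochrome c oxidoreductase, by 2.99. The GUT2 call was lost without Glc24h fermentations 0 or 2 or Glc5h fermentation 1. The cytochrome c genes CYC1 (log2 0.39) and CYC7 (0.48) did not pass the test. ATP synthase and its regulators had 4 of 19 members higher and none lower (median 0.69), with 15 under reference gene scaling. The count was 1 without Glc24h fermentations 0 or 2 or Glc5h fermentation 1, and 2 without Glc24h fermentation 1. The risers were INH1 and STF1, inhibitors of ATP hydrolysis by the enzyme (log2 1.6 and 1.37), and the subunit genes ATP7 (1.15) and ATP5 (0.99). The INH1 call was lost with the block (adjusted p = 0.0527), and those of ATP7 and STF1 were lost in 6 and 4 of 6 runs with a culture left out.

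All 7 tested hexose transporter genes were called, 3 higher and 4 lower (median -2.17), while 4 further members (HXT8, HXT10, HXT14 and GAL2) were at the floor on every array. HXT3, a low-affinity carrier, had 48.8, 37.0 and 38.1 in Glc24h and 668, 643 and 489 in Glc5h (adjusted p = 0.000768). HXT1, the low-affinity carrier of high glucose, had 16, 16 and 30.4 in Glc24h and 237, 392 and 139 in Glc5h (adjusted p = 0.00562). HXT2, a carrier of higher affinity, had 16, 16 and 21.6 in Glc24h and 283, 272 and 181 in Glc5h. HXT4 was at the floor in Glc24h and at 70.0, 131 and 40.8 in Glc5h (log2 -2.17 or larger in size, adjusted p = 0.0179), a call lost in 4 of 6 runs with a culture left out. HXT5 moved the other way, with 1054, 461 and 777 in Glc24h and 16, 16 and 21.9 in Glc5h. The high-affinity carriers HXT6 and HXT7 rose by 1.50 and 1.49, and their probe sets are marked as shared by several transcripts. HXT6 had 1148, 494 and 826 in Glc24h and 257, 382 and 211 in Glc5h, and its adjusted p was 0.0373 without and 0.078 with the block. Without Glc24h fermentation 2, or without Glc5h fermentation 0, HXT6 and HXT7 both lost their calls, which left HXT5 as the only member higher.

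Of 29 tested members of glycolysis and pyruvate decarboxylation 4 rose (13.8%) and 5 fell (17.2%), near the 12.9% and 16.5% of all tested genes (median -0.56, or 0.04 under reference gene scaling), and the culture block gave 2 and 6. Without any culture other than Glc5h fermentation 2 the counts were 1 or 2 higher and 2 or 3 lower. At the first step the kinases split: HXK2 fell, whereas HXK1 had 334, 273 and 246 in Glc24h and 16.2, 42 and 121 in Glc5h (log2 2.70, adjusted p = 0.0426). GLK1, glucokinase, had 872, 429 and 605 in Glc24h and 113, 309 and 204 in Glc5h (log2 1.66, adjusted p = 0.043). Both rises were lost with the block (adjusted p = 0.0645 and 0.0962) and in 5 of 6 runs with a culture left out. In Glc5h, HXK1 was lowest in fermentation 0 and highest in fermentation 2. ENO2, the enolase of growth on glucose, had 312, 161 and 291 in Glc24h and 2197, 1293 and 1170.1 in Glc5h (log2 -2.61 ± 0.36 SE, adjusted p = 0.0072), on a probe set marked as not specific to this gene. PDC1, the main pyruvate decarboxylase, had 312, 190 and 132 in Glc24h and 1872, 881 and 695 in Glc5h (log2 -2.40, adjusted p = 0.0197). Its call was lost without Glc24h fermentations 1 or 2 or Glc5h fermentations 0 or 1 (adjusted p up to 0.079). CDC19, pyruvate kinase, had 904, 524 and 656 in Glc24h and 2553, 1343 and 1228 in Glc5h (log2 -1.25). Its adjusted p was 0.0508, and 0.0284 with the block. Fermentation 0 was the highest culture in both states. FBP26, which removes the activator of phosphofructokinase, rose by 1.26 and kept its call in every run with a culture left out.

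In the pentose phosphate pathway 9 of 21 tested members fell and 3 rose (median 0.08). The falling count was 4 without Glc24h fermentation 0 and 5 without Glc24h fermentation 2 or Glc5h fermentation 0. Without Glc5h fermentation 2, 5 rose. Under reference gene scaling 5 fell and 5 rose (median 0.69). In the oxidative branch, which makes NADPH, SOL3 and GND1 fell and GND2 rose, while the lactonase relative SOL4 (log2 1.53) and the glucose 6-phosphate dehydrogenase gene ZWF1 (log2 0.70) were not called. SOL3 had 20.2, 26.8 and 19.8 in Glc24h and 247, 166 and 209 in Glc5h (adjusted p = 0.0012), and GND1, the main phosphogluconate dehydrogenase, had 122, 128 and 150 in Glc24h and 792, 601 and 436 in Glc5h (log2 -2.16, adjusted p = 0.00421). SHB17, a sedoheptulose bisphosphatase, fell by 2.61 on the log2 scale, and the main transketolase TKL1 by 2.01. The members that rose were the minor isozymes TKL2 (log2 at least 3.53), NQM1 (3.39), a relative of transaldolase, and GND2 (2.45). NQM1 had 188, 182 and 174 in Glc24h and 16, 16 and 20.2 in Glc5h (adjusted p = 0.000475), whereas transaldolase itself, TAL1, had 141, 190 and 106 in Glc24h and 336, 306 and 196 in Glc5h (log2 -0.94, adjusted p = 0.0742, and 0.0405 with the block). XKS1, xylulokinase, of which the strain holds an engineered copy, had 151, 102 and 103 in Glc24h and 105, 143 and 88.3 in Glc5h (log2 0.08, adjusted p = 0.84).

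Related genes were also compared in pairs. Of 45 listed pairs both members were tested in 43. The first-named, usually glucose-phase, member was lower and the second higher in 5: HXK2 and HXK1, TKL1 and TKL2, GND1 and GND2, TPS3 and TSL1, and UBC4 and UBC5. In 11 pairs the second member alone was called, higher each time, and in 8 pairs the first member alone, lower each time. Among those second members GSY2, GSC2, MSN4 and TSA2 lost the call with the block (adjusted p = 0.071, 0.052, 0.094 and 0.063). CDC19, HYP2, TAL1, SSA3 and SSE2 were not called in the main fit but were called with the block. Both rose in 2 pairs (MDH1 and MDH2, NDE1 and NDE2), both fell in 2 (GPP1 and GPP2, RAS1 and RAS2), and neither was called in 15. The calls of MDH1, GPP2 and RAS1 were lost in every run with a culture left out, and those of GPP2 and RAS2 with the block (adjusted p = 0.057 and 0.055). A pair differing in the call of 1 member is not shown to differ, since the difference between members was not tested. ADH1 had 981, 416 and 755 in Glc24h and 2327, 1316 and 839 in Glc5h (log2 -1.02, adjusted p = 0.179) beside the rise of ADH2. ACS2, the acetyl-CoA synthetase of growth on glucose, had 635, 333 and 292 in Glc24h and 377, 392 and 203 in Glc5h (log2 0.35, adjusted p = 0.561) beside the rise of ACS1. BAT1 had 21.2, 29.8 and 32.9 in Glc24h and 289, 356 and 227 in Glc5h, whereas its cytosolic relative BAT2 had 121, 124 and 113 in Glc24h and 70.2, 81.3 and 125 in Glc5h (log2 0.42, adjusted p = 0.253). SSA2, an Hsp70 of growing cells, had 219, 251 and 445 in Glc24h and 2585, 1304 and 1597 in Glc5h (log2 -2.60, adjusted p = 0.00798), while the Hsp70 gene SSA3 had 641, 154 and 428 in Glc24h and 16.5, 16 and 126 in Glc5h (log2 3.43, adjusted p = 0.0512, and 0.0443 with the block). UBC5, a stress-phase ubiquitin-conjugating enzyme, had 130, 117 and 116 in Glc24h and 31.2, 40.4 and 30.7 in Glc5h (log2 1.84, adjusted p = 0.00201), whereas UBC4 fell by 1.53 on the log2 scale, a call lost when any Glc24h culture was left out. Of the pairs with opposite calls, TPS3 and TSL1 both lost their calls with the block (adjusted p = 0.105 and 0.0705). HXK1 lost its call with the block too (adjusted p = 0.065) and kept it in 1 of 6 runs with a culture left out.

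**Figure D3:**
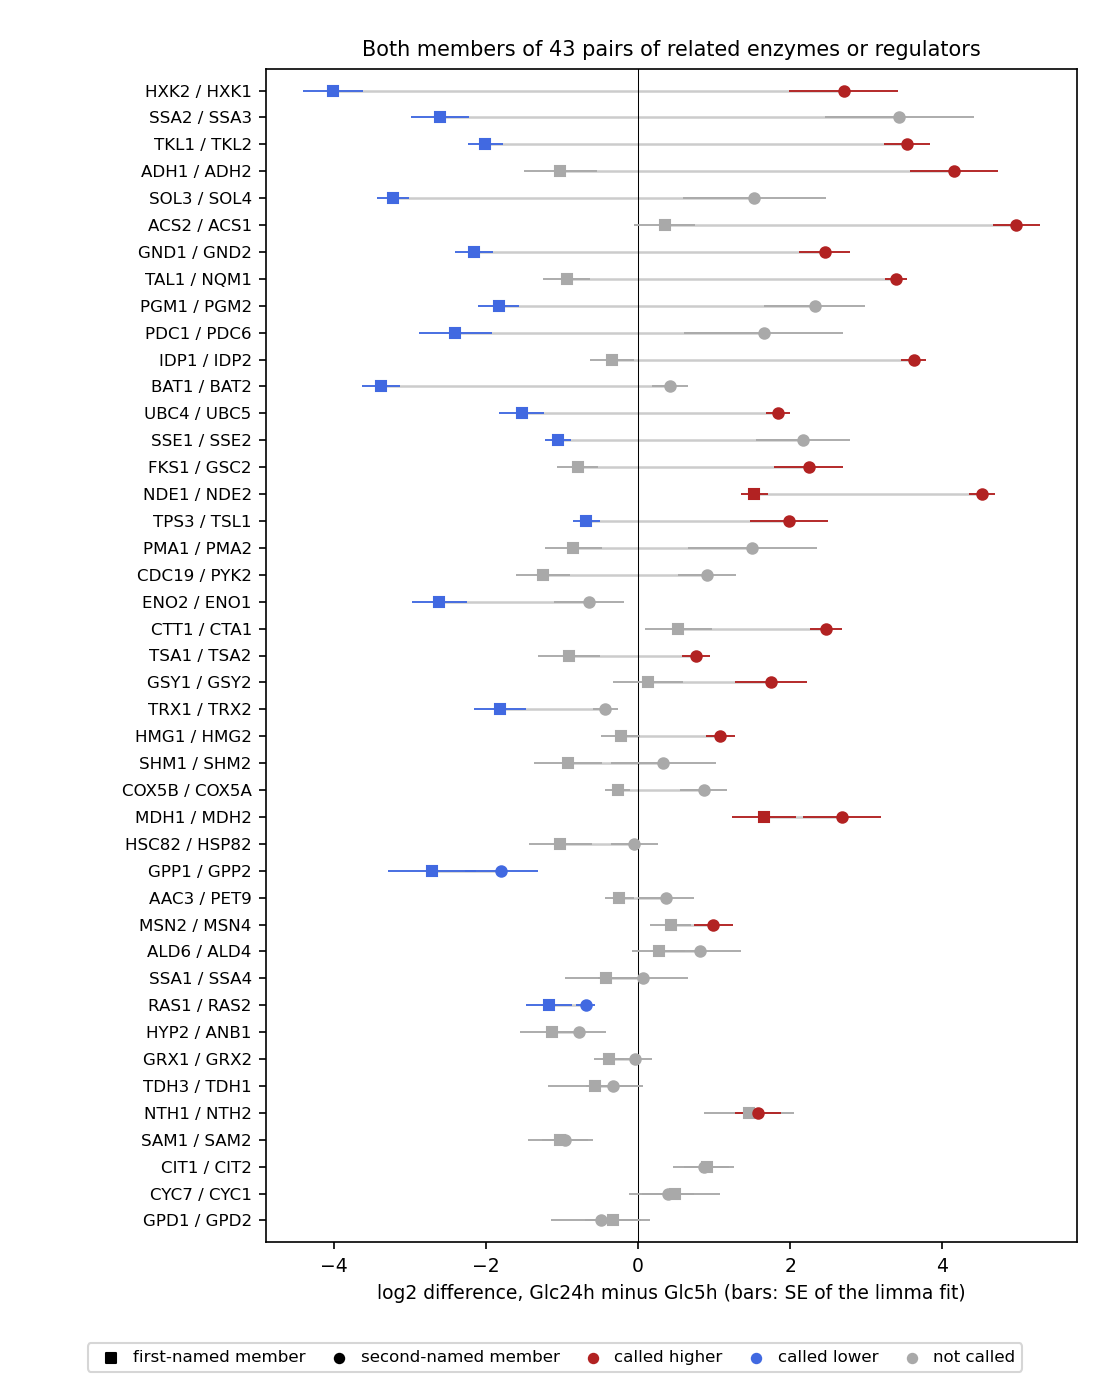
The log2 difference (Glc24h minus Glc5h) of both members of 43 pairs is shown, with squares for the first-named and circles for the second-named member and bars for the SE of the limma fit. Red and blue mark members called higher and lower, and grey those not called. HXK2 and HXK1, at -4.01 and 2.70, lie furthest apart.

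Regulators of glucose repression and derepression rose more often than they fell: 14 of 37 tested members were higher and 2 lower (median 0.41), with 10 to 12 higher when a culture was left out and 1 lower without any Glc24h culture or Glc5h fermentation 2. In 14 of the 37 the state with the lower signal was at the floor. REG2, a regulatory subunit of the Glc7 phosphatase, rose the most, with 486, 347 and 395 in Glc24h and 16, 16 and 17.4 in Glc5h (log2 4.62 ± 0.17 SE, adjusted p = 0.000315). SIP4, an activator of gluconeogenic genes, was at 393, 188 and 260.2 in Glc24h and at the floor in Glc5h (log2 at least 4.07, adjusted p = 0.00128). HAP4, the limiting subunit of the activator of respiratory genes, had 426, 232 and 325 in Glc24h and 54.3, 25.8 and 42.9 in Glc5h (log2 3.02 ± 0.36 SE, adjusted p = 0.00452). SIP2, a subunit of the Snf1 kinase complex, was at 67.5, 55.2 and 125 in Glc24h and at the floor in Glc5h. The activators CAT8 and ADR1, described after their values were seen, were at the floor in Glc5h and reached 68.3, 71.3 and 56.5 (CAT8) and 56.3, 48.0 and 46.2 (ADR1) in Glc24h, differences of at least 2.02 and 1.64. STD1, which acts with the glucose sensors, had 22.4, 17.6 and 20.8 in Glc24h and 61.3, 46.8 and 51.9 in Glc5h (log2 -1.39, adjusted p = 0.00495), while its relative MTH1, also described after its value was seen, rose by at least 1.58. MIG2, a repressor, was at the floor in Glc24h and at 55.1, 25.9 and 35.7 in Glc5h, and its call (adjusted p = 0.0305) was lost in 4 of 6 runs with a culture left out.

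Genes of the cAMP, PKA, TOR and quiescence regulators had 9 of 28 members higher and 2 lower (median 0.97). The count of higher members was 3, 2 and 2 without Glc24h fermentations 0, 1 and 2, and 1, 4 and 9 without Glc5h fermentations 0, 1 and 2. With the block, or with any culture left out, 1 was lower. CYR1, adenylate cyclase, kept its call in each run, with 50.1, 57.0 and 35.6 in Glc24h and 16, 20.1 and 17.2 in Glc5h (log2 1.4, adjusted p = 0.0099), although not with a floor of 32. IRA2, a GTPase activator that restrains Ras, had 92.6, 115 and 92.5 in Glc24h and 22, 47.2 and 24.5 in Glc5h (log2 1.76, adjusted p = 0.0153). The repressor gene XBP1 rose by at least 1.64 and GPA2, a G protein subunit, by 1.56. The calls of IRA2, XBP1 and GPA2 were each lost in 4 of 6 runs with a culture left out, and that of GPA2 with the block (adjusted p = 0.0506). RAS2 fell by 0.69 (block adjusted p = 0.0546) and was not called under reference gene scaling.

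**Figure D4:**
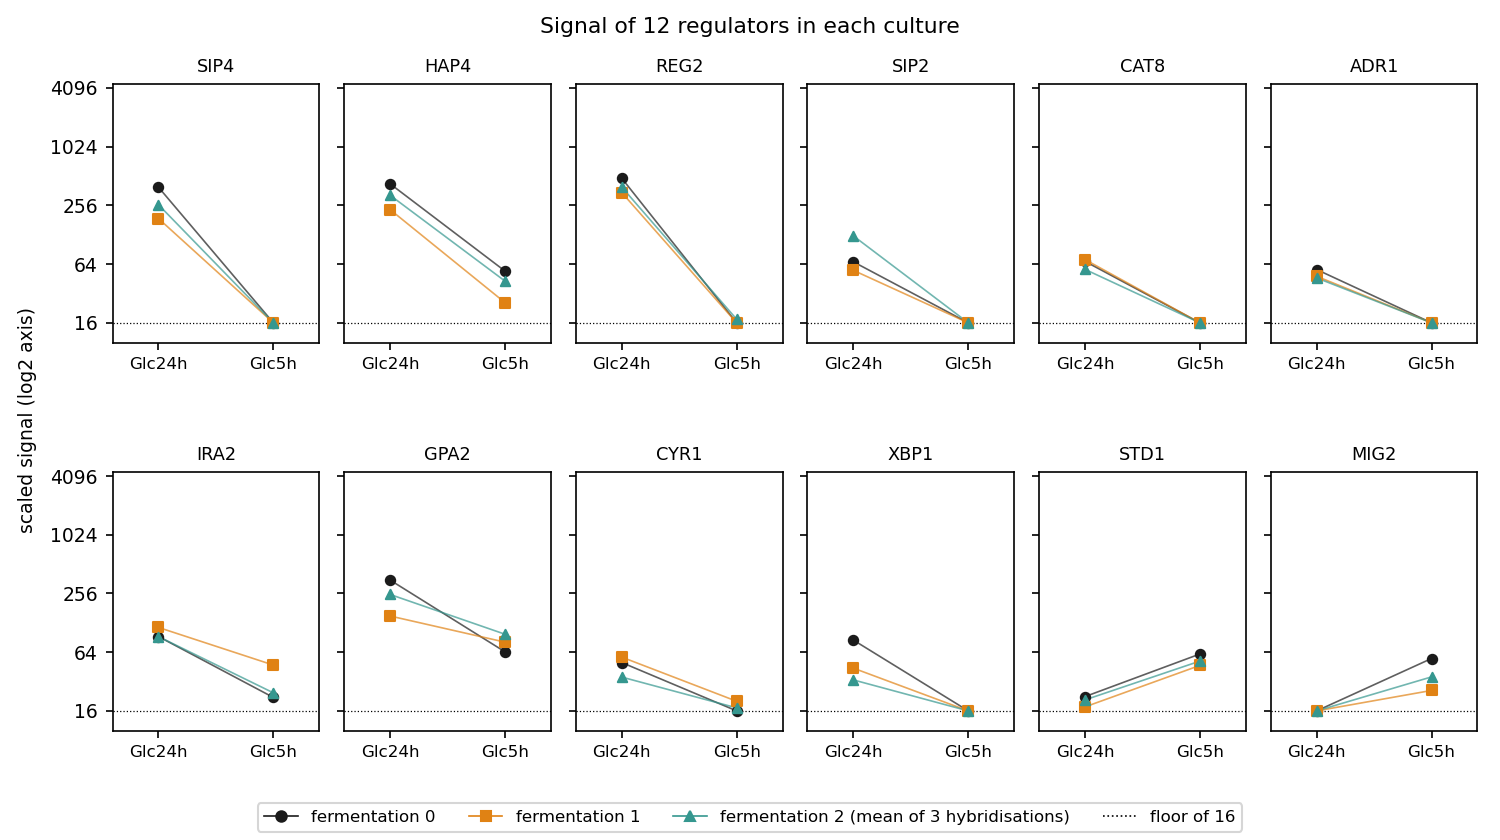
The scaled signal of 12 regulators is shown on a log2 axis in each culture, with Glc24h left and Glc5h right. SIP4, CAT8, ADR1, SIP2 and XBP1 were at the floor of 16 in every Glc5h culture, and REG2 was at 16, 16 and 17.4 there. STD1 and MIG2 were lower in Glc24h.

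Genes of glycogen rose in part, and several spread widely among the Glc5h cultures. Of 15 tested glycogen genes 8 rose and 1 fell (median 1.77), and 2, 3 and 5 rose without Glc24h fermentations 0, 1 and 2, against 5, 3 and 7 without Glc5h fermentations 0, 1 and 2. GAC1, which targets a phosphatase to glycogen synthase, was at 211, 117 and 127 in Glc24h and at the floor in Glc5h (log2 at least 3.19, adjusted p = 0.00155). The glycogenin gene GLG2, the initiator of glycogen chains, was at 56.6, 68.3 and 41.7 in Glc24h and at the floor in Glc5h (log2 at least 1.77, adjusted p = 0.00438). GDB1, the debranching enzyme, had 257, 171 and 269 in Glc24h and 16, 29.3 and 70.2 in Glc5h (log2 2.83, adjusted p = 0.0187), and its call was lost in 4 of 6 runs. The major synthase GSY2 had 149, 140.0 and 119 in Glc24h and 21.2, 39.9 and 77.9 in Glc5h (log2 1.75, adjusted p = 0.0451, and 0.0705 with the block). GDB1 and GSY2 were lowest in fermentation 0 and highest in fermentation 2 of the Glc5h cultures. PGM1, a phosphoglucomutase, fell by 1.83 on the log2 scale, with 21.9, 21.8 and 16 in Glc24h and 86.1, 81.1 and 48.8 in Glc5h. PGM2, the major isozyme, had 341, 270.1 and 205 in Glc24h and 18.9, 90.4 and 88.2 in Glc5h (log2 2.32, adjusted p = 0.0509).

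For trehalose, 3 of 7 members rose and 1 fell (median 1.46), with 5 higher when Glc5h fermentation 2 was left out and 1 when Glc24h fermentations 0 or 2 or Glc5h fermentations 0 or 1 were. ATH1, the acid trehalase, had 136, 109 and 83.9 in Glc24h and 16, 22.3 and 28.5 in Glc5h (log2 2.31, adjusted p = 0.0052). It kept its call in all of these runs. TSL1, a regulatory subunit of trehalose synthase, had 317, 208 and 221 in Glc24h and 30.6, 65.2 and 118 in Glc5h (log2 1.98), and NTH1, the neutral trehalase, had 153, 140 and 145 in Glc24h and 23.2, 52.6 and 123 in Glc5h (adjusted p = 0.129). Both genes were again lowest in fermentation 0 and highest in fermentation 2 of the Glc5h cultures. Among the maltose and sucrose genes 3 of 7 tested rose and none fell (median 0.25), and SUC2 and the galactose genes GAL1, GAL7 and GAL10 were at the floor on all arrays. MAL11 had 429, 309 and 834 in Glc24h and 16, 16 and 20.9 in Glc5h (adjusted p = 0.00166). MAL31, the maltose permease, was at 123, 126 and 269 in Glc24h and at the floor in Glc5h (log2 at least 3.33, adjusted p = 0.00288), on a probe set shared by related genes. The activator gene MAL33 rose by 1.22, a call lost with the block (adjusted p = 0.0568).

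Stationary phase genes had the highest median of the lists, 2.63, with 14 of 19 tested members higher and none lower (10 to 15 with a culture left out, 12 without Glc24h fermentation 1). SPG4 had 607, 505 and 729 in Glc24h and 16, 16 and 40.9 in Glc5h. PIR3, a cell wall glycoprotein, had 615, 206 and 341 in Glc24h and 16, 16 and 25.1 in Glc5h (log2 4.24, adjusted p = 0.00329). SPG1, MBR1, ISF1 and SPS100 were all at the floor in Glc5h and rose by at least 3.20, 3.47, 3.49 and 2.05. FMP16 rose by 3.65 and HBT1 by 3.56. SNZ1, of vitamin B biosynthesis, had 131, 247 and 274 in Glc24h and 26.9, 191 and 34.0 in Glc5h, and these ranges overlapped.

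Of the 34 Msn2/4-type stress genes and hydrophilins 20 rose and 3 fell (median 1.74), with 14 to 21 higher when a culture was left out. SIP18 had 396, 498 and 536 in Glc24h and was at the floor in Glc5h (adjusted p = 0.000315). GRE1, a related hydrophilin, had 635, 267 and 302 in Glc24h and 16, 16 and 26.2 in Glc5h (log2 4.30, adjusted p = 0.00238). TMA10 rose by 4.22 and RGI2, involved in respiratory energy metabolism, by at least 4.13. The members that fell were GPP1 (log2 -2.71) and GPP2 (-1.80, with an adjusted p of 0.0568 in the block), glycerol phosphatases, and DDR48 (-1.96), and none of these calls held without Glc24h fermentations 1 or 2 or Glc5h fermentations 0 or 1, while 1 held without Glc5h fermentation 2. Of the heat-shock genes 4 of 26 tested members rose (15.4%) and 2 fell (7.69%), against 12.9% and 16.5% of all tested genes (median 0.13). The rising count was 2 without Glc24h fermentations 0 or 2 or Glc5h fermentation 0. Under reference gene scaling 10 rose and 2 fell (median 0.73). HSP30 had 573, 469 and 1025 in Glc24h and 23.0, 16 and 46.5 in Glc5h (adjusted p = 0.00337), and AHA1, a co-chaperone of Hsp90, rose by 1.23. SSA2 and SSE1 fell by 2.60 and 1.05 (log2).

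Within the thiol and peroxide defences 6 of 33 tested members rose and 6 fell (median 0.18). This was 18.2% in each direction, near the 12.9% and 16.5% of all tested genes. The rising count was 3 without Glc24h fermentation 0 or Glc5h fermentation 1. The balance depended on the scaling, since 12 rose and 4 fell under reference gene scaling (median 0.78). The risers with calls in every run were peroxide-removing or flavin enzymes: GPX1, a glutathione peroxidase (272, 244 and 271 in Glc24h, 16, 16 and 24.6 in Glc5h; log2 3.83), OYE3 (2.97), an NADPH oxidoreductase, and CTA1. Members of the thioredoxin system were called in both directions. TRR1, thioredoxin reductase, had 78.0, 76.5 and 92.9 in Glc24h and 375, 244 and 274 in Glc5h (log2 -1.83, adjusted p = 0.00407), and TRX1 had 225, 174 and 217 in Glc24h and 1188, 541 and 572 in Glc5h (log2 -1.81, adjusted p = 0.0165), a call lost when any Glc24h culture was left out. TRX3, the mitochondrial thioredoxin, had 41.2, 62.9 and 52.1 in Glc24h and 32.1, 16 and 23.7 in Glc5h (log2 1.16, adjusted p = 0.0417), a call lost with the block (adjusted p = 0.0938) and without Glc24h fermentation 1 (adjusted p = 0.124). TRX2, TRR2 and TSA1 were not called. CYB5, cytochrome b5 of sterol and lipid synthesis, fell by 2.39 on the log2 scale and the glutaredoxin gene GRX3 by 1.75.

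Genes of protein synthesis were lower, among them the aminoacyl-tRNA synthetases, which load amino acids onto tRNA. Of 19 tested members 17 fell and none rose (median -1.97, and -1.37 under reference gene scaling), with 10 falling without Glc24h fermentations 0 or 2, 11 without Glc5h fermentation 1 and 15 without Glc24h fermentation 1. WRS1, for tryptophan, had 33.8, 33.8 and 35.4 in Glc24h and 525, 210.1 and 216 in Glc5h (log2 -3.07, adjusted p = 0.0052). THS1, for threonine, had 46.7, 53.1 and 39.0 in Glc24h and 308, 271 and 176 in Glc5h (log2 -2.42, adjusted p = 0.00352). FRS1, for phenylalanine, had 169, 185 and 136 in Glc24h and 945, 758 and 912 in Glc5h (log2 -2.42, adjusted p = 0.00149). TYS1, for tyrosine, fell by 2.27, CDC60, for leucine, by 2.04 and GUS1, for glutamate, by 1.73 (log2). Among translation factors 23 of 35 fell and none rose (median -1.27), with 11 and 8 falling without Glc24h fermentations 0 and 2. TEF4, a subunit of an elongation factor, had 27.1, 31.7 and 21.3 in Glc24h and 331, 244 and 136 in Glc5h (log2 -3.07, adjusted p = 0.00452).

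Factors that build ribosomes fell in 39 of 105 tested cases and rose in 1, with a median of -0.89. Without Glc24h fermentations 0, 1 and 2 the falling members were 20, 24 and 20. In 40 of the 105 the lower state was at the floor, which limits the size of the difference. The snoRNP proteins that modify ribosomal RNA led: NOP58 had 45.2, 32.4 and 41.1 in Glc24h and 642, 319 and 263 in Glc5h, NOP56 was at the floor in Glc24h (log2 -3.06 or larger in size), and SNU13 and GAR1 differed by -2.83 and -2.79. The RNA polymerases I and III that transcribe ribosomal and transfer RNA had 11 of 31 subunits lower and none higher (median -0.43), led by RPC19, which both enzymes share (log2 -2.29, adjusted p = 0.0108). Without Glc24h fermentations 0, 1 and 2 the count was 6, 6 and 5, and 6 without Glc5h fermentation 1. Under reference gene scaling 6 were lower and 2 higher (median -0.15). Cytosolic ribosomal protein genes, of which 79 had a probe set of their own that was tested, gave 45 lower and none higher (median -1.57, lowest -3.33, highest -0.09). The number called depended on the cultures: it was 3, 5 and 2 without Glc24h fermentations 0, 1 and 2, and 28, 10 and 58 without Glc5h fermentations 0, 1 and 2. Under reference gene scaling 25 were lower and none higher (median -0.97). Of the mitochondrial ribosomal proteins 2 of 65 were higher and none lower (median 0.20), against 19 higher under reference gene scaling (median 0.76), with 4 higher in the block and 0 to 2 when a culture was left out.

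Nucleotide synthesis genes were lower in part. In the pyrimidine list 6 of 13 fell and 2 rose (median -1.16). URA7 was at 16, 16 and 16.3 in Glc24h and at 391, 138 and 109 in Glc5h (log2 -3.49, adjusted p = 0.00722), whereas the second CTP synthase gene URA8 had 233, 170.0 and 301 in Glc24h and 87.4, 95 and 147 in Glc5h (log2 1.10, adjusted p = 0.0459). URA5, an orotate phosphoribosyltransferase, fell by 2.36, and its minor relative URA10 rose by 1.90. FUR1, which salvages uracil, differed by -3.14 and the dihydroorotase gene URA4 by -2.57. The rises of URA8 and URA10 were lost in 5 and 2 of 6 runs with a culture left out. Of 28 genes of purine and one-carbon metabolism 9 fell and 1 rose (median -0.94), and the falls included the branch to GMP. There the IMP dehydrogenase genes IMD4 and IMD2 differed by -2.95 and -2.15 (the IMD2 probe set is shared with related genes) and the GMP synthase gene GUA1 by -2.71. GCV2, of the glycine cleavage system, was the member that rose (1.97), and its call was lost in 5 of 6 such runs.

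Amino acid synthesis genes fell in 32 and rose in 5 of 66 tested cases (median -1.09), with 18, 24 and 21 falling without Glc24h fermentations 0, 1 and 2 and 20 without Glc5h fermentation 0. The rising count was 2 without Glc24h fermentation 0 and 3 without Glc24h fermentation 2 or Glc5h fermentations 0 or 1. Under reference gene scaling 17 fell and 7 rose (median -0.50). HOM2, of threonine and methionine synthesis, had 23.1, 28.2 and 21.1 in Glc24h and 259, 229 and 116 in Glc5h (log2 -2.99, adjusted p = 0.00409). ARO8, an aromatic aminotransferase, fell by 2.70. Among the members that rose (3 of them with the block) were glutamate dehydrogenases. GDH3 had 662, 303 and 574 in Glc24h and 16, 16.8 and 28.1 in Glc5h, and GDH2, which frees ammonium from glutamate, had 231, 188 and 168 in Glc24h and 16.3, 37.7 and 16 in Glc5h (log2 3.18, adjusted p = 0.00452). In the list of nitrogen catabolite repressed and GABA genes 5 of 17 members rose and 1 fell (median 0.75), and 5 to 7 rose when a culture was left out. The list member that fell was the asparaginase gene ASP1 (log2 -2.56, not called without fermentation 0 of either state). DUR3, the urea transporter, rose by 1.78, PUT1, proline oxidase, by at least 1.98, DAL5, the allantoate permease, by 1.27 and UGA2, of GABA use, by 1.22. The ammonium permease genes MEP1 and MEP2 rose by 1.92 and 1.75. PUT4, the proline permease, spread from 161 to 1113 in Glc24h against 19.3 to 52.4 in Glc5h (log2 3.87, adjusted p = 0.0197), a call lost in 4 of 6 runs.

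Sulphur amino acid genes did not move in 1 direction, with 5 of 29 higher (17.2%) and 3 lower (10.3%, median 0.16). Over all tested genes 12.9% were higher and 16.5% lower. SAH1, which recycles the methyl donor's product, fell by 2.29 on the log2 scale (adjusted p = 0.00155), and STR3, a cystathionine lyase, rose by 2.72 (adjusted p = 0.00409). With the block 2 of the 29 were called higher, and 2 or 3 in each run with a culture left out. Under reference gene scaling 6 were higher and 2 lower (median 0.62).

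The cycle that elongates fatty acids was lower. Of 15 tested fatty acid genes 7 fell and 2 rose (median -0.23), and 5 to 6 fell when a culture was left out, while 0 or 1 rose in those runs and 1 with the block. Under reference gene scaling 5 fell and 5 rose (median -0.01). ELO3 had 23.8, 31.5 and 41.4 in Glc24h and 466, 375 and 187 in Glc5h (adjusted p = 0.00471), and the elongase ELO2 had 18.8, 16.8 and 21.0 in Glc24h and 186, 137 and 81.4 in Glc5h (log2 -2.76, adjusted p = 0.00434). The reductases of the same cycle, IFA38 and TSC13, fell by 1.99 and 1.59 and ELO1 by 1.41. ACC1, acetyl-CoA carboxylase, moved against them, with 1385, 859 and 1302 in Glc24h and 557, 436 and 496 in Glc5h (log2 1.23, adjusted p = 0.0162), and its call was lost without Glc24h fermentations 0 or 2 or Glc5h fermentation 1. Ergosterol synthesis had 10 of 28 members lower and 1 higher (median -0.68, and -0.04 under reference gene scaling), led by ERG26 (log2 -2.21), with 4 lower without Glc24h fermentations 0 or 2 or Glc5h fermentation 0 and 5 without fermentation 1 of either state. In the inositol and phospholipid list 4 of 23 rose and 4 fell (17.4% each, against 12.9% and 16.5% of all tested genes). The median was -0.21, and 0.34 under reference gene scaling, and 1 fell in the block. Leaving out Glc24h fermentations 0, 1 and 2 gave 1, 0 and 2 falling, leaving out Glc5h fermentations 0, 1 and 2 gave 1, 1 and 6, and 2 rose without Glc24h fermentations 0 or 2. INO1, inositol phosphate synthase, rose by 2.53, with 313, 227 and 226 in Glc24h and 59.0, 40.3 and 35 in Glc5h (adjusted p = 0.00308), and GPT2, an acyltransferase at the start of phospholipid synthesis, rose by 1.48.

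Of 43 cell wall genes 14 fell and 3 rose (median -0.76), against 2 falling under reference gene scaling (median -0.16), with 7 and 2 falling without Glc24h fermentations 0 and 2, 3 without Glc5h fermentations 0 or 1, and 1 rising with the block. UTR2 and GAS3, a wall glucan remodelling protein (log2 -2.04), kept their calls throughout. GSC2, a glucan synthase subunit of stressed cells, rose by 2.24 (adjusted p = 0.019, and 0.0524 with the block), while its glucose-phase relative FKS1 had 262, 223 and 304 in Glc24h and 533, 550.4 and 314 in Glc5h (adjusted p = 0.0823). DNA replication had 10 of 33 lower and none higher (median -0.73), led by DUT1, dUTPase (log2 -2.68). The lower count was 5 or 6 without Glc24h fermentations 0 or 2 or Glc5h fermentations 0 or 1. Under reference gene scaling 4 were lower and 2 higher (median -0.18). Cell cycle genes had 4 of 32 lower (12.5%, against 16.5% of all tested genes) and 1 higher (median -0.07, and 0.31 under reference gene scaling), with 2 lower without Glc24h fermentations 1 or 2, among them the G1 cyclin CLN1 (-0.86, not called under reference gene scaling) and the kinase CDC28 (-0.90, likewise).

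Subunits of the vacuolar proton pump fell: 11 of the 23 pump and ion transport genes were lower and 2 were higher (median -1.06), 8 to 11 were lower when a culture was left out, and all 11 were subunits of the V-ATPase. VMA7 had 47.0, 55.9 and 53.1 in Glc24h and 254, 201 and 239 in Glc5h (log2 -2.15, adjusted p = 0.00139), and VMA4 and VMA5 each fell by 1.70 on the log2 scale. The plasma membrane pump PMA1 had 519, 239 and 394 in Glc24h and 930, 619 and 495 in Glc5h (log2 -0.85, adjusted p = 0.152). Of the autophagy genes and vacuolar hydrolases 9 of 30 rose and 1 fell (median 0.49), with 5 higher in the block, 3, 7 and 5 without Glc24h fermentations 0, 1 and 2, and 5 and 4 without Glc5h fermentations 0 and 1. ATG1, the kinase that starts autophagy, was at 58.2, 72.9 and 55.3 in Glc24h and at the floor in Glc5h (log2 at least 1.95, adjusted p = 0.00155). Proteasome and ubiquitin genes had 12 of 41 lower and 3 higher (median -0.58, and 0.03 under reference gene scaling), with 2 and 4 lower without Glc24h fermentations 0 and 2. RPN4, the activator of proteasome genes, was among the risers, with 119, 153 and 153 in Glc24h and 62.8, 52.6 and 64.8 in Glc5h (log2 1.24, adjusted p = 0.00691), while the core subunit PUP2 fell by 1.26.

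**Figure D5:**
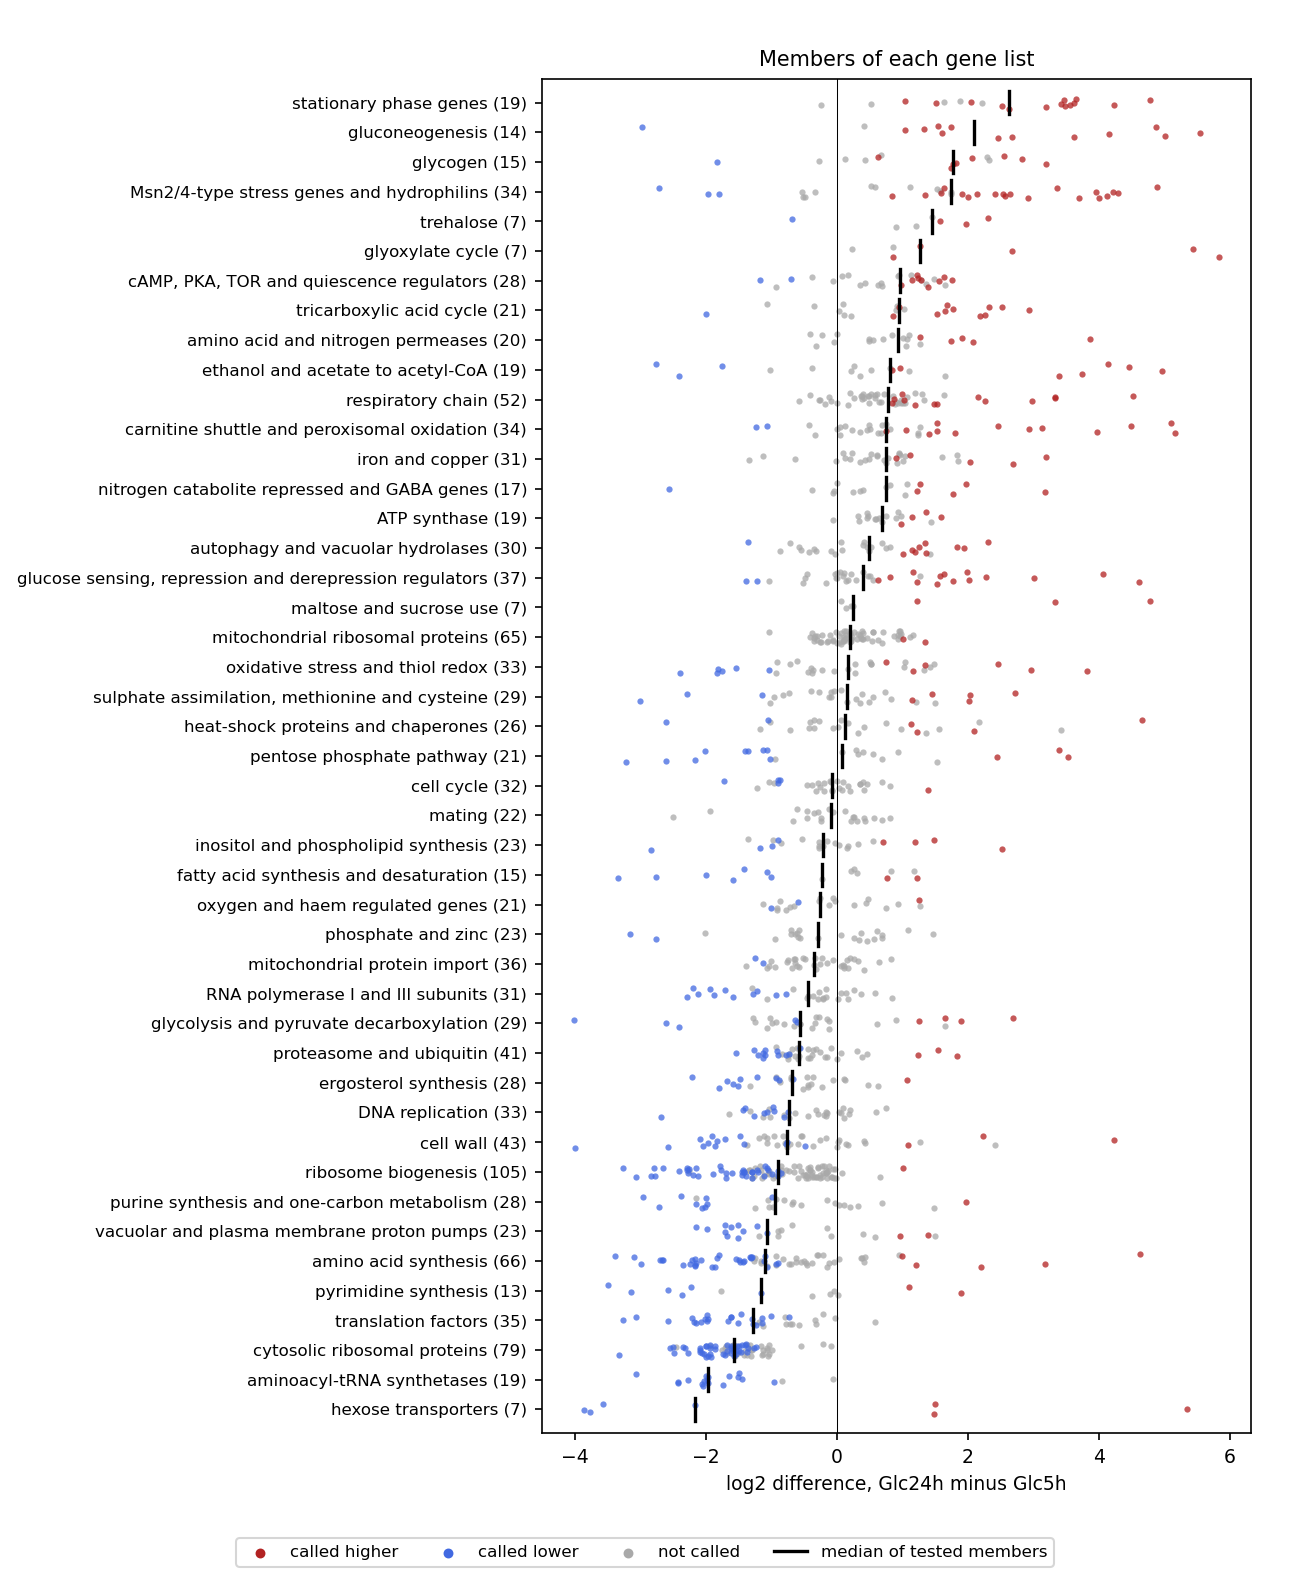
Each row is a gene list with the number of tested members, each point a member at its log2 difference (Glc24h minus Glc5h), and each black bar the median. Lists are ordered by median, which runs between -2.17 for the hexose transporters and 2.63 for the stationary phase genes. Red and blue mark members called higher and lower.

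Some groups had few calls. None of 22 tested mating genes was called, and none of the 5 alpha-specific genes, although 1 of the mating and 2 of the alpha-specific genes were lower in the block. Mitochondrial protein import had 2 of 36 members lower, TOM40 (log2 -1.13) and TOM22 (-1.24), and none higher (median -0.34, and 0.13 under reference gene scaling). The call of TOM40 was lost under reference gene scaling and that of TOM22 with the block (adjusted p = 0.0629). Of 31 genes of iron and copper 5 rose (16.1%, against 12.9% of all tested genes) and none fell (median 0.76). The largest rise was that of the copper transporter gene CTR3 (log2 3.20). The count of higher members was 1, 2 and 1 without Glc24h fermentations 0, 1 and 2 and 1 without Glc5h fermentation 0. It was 12 under reference gene scaling (median 1.33). Of the haem and oxygen regulated genes 1 of 21 rose (HEM1, log2 1.26, lost in 4 of 6 runs with a culture left out) and 2 fell. The 5 reference genes were not called, although each had the lower mean in Glc24h (log2 -0.86 to -0.21): ACT1 had 879, 465 and 816 in Glc24h and 1606, 877 and 1003 in Glc5h (adjusted p = 0.198).

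Among genes with no name beyond a systematic one, 62 of 347 tested rose and 30 fell, against 12.9% and 16.5% of all tested genes. A further 616 tested probe sets had no gene name in the annotation used, of which 43 were higher and 20 were lower, against 11.7% and 15% of all probe sets.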

How the data were processed

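Total RNA was hybridised to one-colour Affymetrix yeast arrays, which the authors read out with Affymetrix MicroArray Suite 5.0 per the labels. The deposited values are linear signal intensity on every array, scaled by the authors' software to a 2% trimmed mean near 50. They are not the RMA log2 values of the study's methods. Control probe sets (60 of 9335) were removed, each array was scaled to a 75th percentile of 51.7, signals under 16 were set to 16, log2 values were taken, and the 3 hybridisations of fermentation 2 were averaged. Probe sets at 16 on all 10 arrays were left out. The difference Glc24h minus Glc5h was fitted with limma 3.58.1 in R 4.3.3 (lmFit, eBayes, two-sided, Benjamini-Hochberg over 5818 probe sets, threshold 0.05), with no block. The 5 h and 24 h samples of a number came from 1 culture per the study's methods, so the fermentation number was also fitted as a block. Deviations of same-numbered samples correlated at r = 0.02, 0.19 and 0.26. For most genes described singly, a call changed by the block is stated beside a result of that gene. Counts of members and pairs are those of the main fit unless the block is named. P-values at the floor may be too small, since the floor sets the spread to 0. Array number limits the precision.

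Of 9275 probe sets of genes, 6504 had 1 gene symbol in the platform annotation, 328 had several and 2443 had none. For a gene with several probe sets, an unmarked one, and then the brightest, was used. Genes were named from these sets: the 15 called genes with the largest rise and the 15 with the largest fall, up to 4 called members a direction of each list, every called member of lists with up to 20 tested members, both members of isozyme pairs, and the strain, reference and marker genes. Not every gene of these sets is given above. The comparison, lists and pairs were chosen with earlier results of these data known. Lists got no test of their own. CAT8, ADR1, MTH1, FOX2, POX1, POT1, SDH3, SDH4, ZWF1, TRX3 and TRR2 were named after their values were seen. MDH3, SNZ1, AGP2 and HNM1 were also named outside those sets. Alternatives tried were other floors, filters, normalisations, a trended variance, 1 hybridisation of fermentation 2, a fit with the xylose cultures, the block and leaving out each culture. Sequences were not analysed here.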

Additional observations from a re-analysis of the deposited data

How the results depend on the processing

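The counts of probe sets called higher and lower in Glc24h (679 and 874) changed with the scaling, the filter and the cultures used. Scaling on reference genes gave 1312 higher and 428 lower, and no filter on low signals gave 320 higher and 361 lower, over 9275 probe sets. Leaving out 1 culture at a time gave 363 to 610 higher and 370 to 947 lower. Both counts fell by over 1.5 times without Glc24h fermentations 0 or 2 or Glc5h fermentations 0 or 1, and that of lower probe sets without Glc24h fermentation 1. With the fermentation number as a replicate block 572 were higher and 804 lower, and 514 and 695 of the main calls were made again. Signals as deposited gave 780 higher and 639 lower, and cyclic loess 803 and 751. Of 281 named genes that were called, 152 kept the call in all 6 runs with a culture left out and 41 lost it with the block. Across 5337 values of these genes under alternatives, 4497 kept direction and call, 839 kept direction and lost the call, and 1 changed sign: the haem synthesis gene HEM4 differed by -0.59 in the main comparison (adjusted p = 0.0389, and 0.0986 with the block) and by 0.02 under reference gene scaling. The causes were not tested.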

Other observations

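In a few genes 1 Glc24h culture stood apart from the other two. These genes were picked after their values were seen, and groups of 3 cultures were not tested for outlying values. PDC6, the minor pyruvate decarboxylase, had 266, 29.0 and 16.3 in Glc24h fermentations 0, 1 and 2 and was at the floor in Glc5h. PMA2, the minor plasma membrane proton pump, had 206, 37.5 and 22.4 in Glc24h and 16.3, 28.1 and 16.5 in Glc5h. SAG1, the alpha-agglutinin, had 774, 190 and 198 in Glc24h and 333, 290 and 334 in Glc5h.

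In Glc5h, fermentation 2 was the highest and fermentation 0 the lowest for several storage and stress genes whose Glc24h signals were close together. SOL4, a lactonase of the pentose phosphate pathway, had 493, 296 and 340 in Glc24h and 38.7, 103 and 521 in Glc5h. SSE2, a stress chaperone, had 213, 214 and 290 in Glc24h and 23.0, 49.4 and 127 in Glc5h (log2 2.17, adjusted p = 0.0512, and 0.0401 with the block). Without Glc5h fermentation 2 the count of probe sets lower in Glc24h was 947 and that of higher ones 610.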
